A study of Mus musculus with 9 samples.

Results

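Gene expression after exposure to 100 pM 17β-estradiol (E2) was compared with expression after exposure to 10 pM E2 in mesenchymal cells of the fetal mouse urogenital sinus, with DHT present at both doses. The comparison uses the 3 arrays titled Estradiol 100 pM and the 3 titled Estradiol 10 pM, 6 of the 9 arrays in the series, and 19938 genes. The other 3 arrays are of cells given vehicle (0.05% ethanol). They enter the estimate of the spread and are printed where they show from which side a gene came. All 9 arrays are of cells given 690 pM dihydrotestosterone (DHT), so there is no array without androgen. The cells were taken from male CD-1 fetuses, an outbred stock, on gestation day 17, grown as primary cultures to the first passage, held for 3 days without estrogen, in charcoal-stripped serum with DHT, and then exposed for 4 days. Fetuses were not tracked to arrays in the labels, and no source says that the 3 samples of a dose were separate cultures. A p-value here is thus read against differences among those samples alone, and these could be technical.

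The urogenital sinus mesenchyme is the embryonic connective tissue that instructs the overlying epithelium to form prostatic buds. It responds to DHT, and it also carries estrogen receptor α (Esr1). Bound by E2, that receptor attaches to estrogen response elements or to other DNA-bound factors and raises or lowers transcription of nearby genes. Classical targets include Pgr, the progesterone receptor, and Greb1, a cofactor of the receptor.

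Mesenchymal markers were the brightest of the cell type lists. All 12 mesenchyme and fibroblast markers were measured, their median level lay at percentile 99.2 of all genes, and their summed linear signal was 54530 to 55781 at 10 pM and 53388 to 54728 at 100 pM. The 14 epithelial markers summed to 824 to 838 at 10 pM, 894 to 949 at 100 pM and 833 to 870 in vehicle, with a median at percentile 32.5. The 15 macrophage markers measured of 16 summed to 794 to 892 at 10 pM and 742 to 760 at 100 pM (median percentile 31.8), and the 13 endothelial markers to 1246 to 1265 and 1227 to 1234 (percentile 41.2). Sums of 7 neural crest and glial markers (442 to 469 and 472 to 481), 8 skeletal muscle markers (2201 to 2426 and 2197 to 2446) and 6 adipocyte markers (277 to 282 and 266 to 278) completed the check. In these 3 lists the members of smallest p were Ngfr (0.07) and Tubb3 (0.16), Acta1 (0.15) and Myod1 (-0.13), and Fabp4 (-0.15) and Adipoq (0.04) by log2 difference, with adjusted p of 0.417 to 0.886. An array signal has no true zero, so none of these markers can be called absent. In RNA from a whole culture, fewer cells of a type and less RNA per cell cannot be told apart.

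Expression was lower at 100 pM than at 10 pM E2 for 121 genes and higher for 45, which are 0.607% and 0.226% of the genes tested and 0.833% together (limma, Benjamini-Hochberg adjusted p below 0.05, called here). The falls were the larger changes. A log2 difference beyond 1, a 2-fold change, was reached by 5 of the lower and 0 of the higher genes, and one beyond 0.5 by 55 and 11. The median log2 difference was -0.46 among the lower genes, 0.38 among the higher genes and 0.00 over all genes, of which 50.4% had the higher mean at 100 pM. For each of the 166 genes the 3 arrays of one dose lay entirely to one side of the other dose, as they did for 12.3% of all genes. The calls rest on the spread pooled over 9 arrays: with the 6 arrays alone, limma called 1 gene, Lrat, although all 166 genes had an unadjusted p below 0.01 there. Leaving out a 10 pM array left 30, 39 or 38 calls, and leaving out vehicle array 1 or 3 left 100 or 110.

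**Figure D1:**
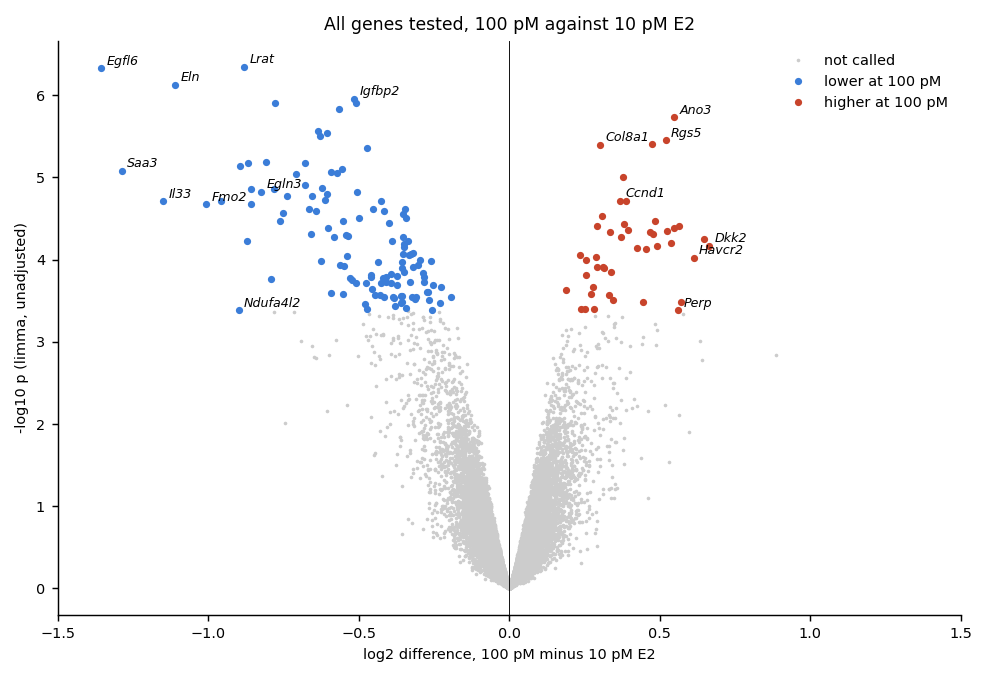
Each point is 1 of 19938 genes, with the log2 difference of 100 pM minus 10 pM E2 on the x axis and −log10 of the unadjusted limma p on the y axis. The 121 genes called lower (blue) reach -1.36 and the 45 called higher (red) reach 0.66.

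The 100 pM arrays were not alike in size of response. The second 100 pM array held the lowest value of the 6 for 108 of the 121 lower genes and the highest for 30 of the 45 higher genes. On the first principal component of the 6 arrays, which held 34.7% of the variance, the 10 pM arrays stood at -7.09, -8.86 and -5.15 and the 100 pM arrays at 6.65, 11.6 and 2.82. Without that array limma called 105 genes, 24 higher and 81 lower, and 96 of them were among the 166. Log2 differences of the 166 shrank to a median of 0.884 of their size. Every gene of the 166 kept its sign, as it had to where the doses did not overlap. In all 9 fits that each left out 1 array, 26 genes stayed called. The 20 lower ones were Egfl6, Saa3, Eln, Gdpd2, Lrat, Adh1, Itm2a, Lcn2, Serping1, A2m, Stra6, Adgrg2, Sema3d, Cdc42ep3, Itga1, Cldn11, Clip4, Igfbp2, Pdgfra and Slitrk4, and the 6 higher ones were Col8a1, Pappa, Fam110c, Masp1, Rgs5 and Ano3.

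**Figure D2:**
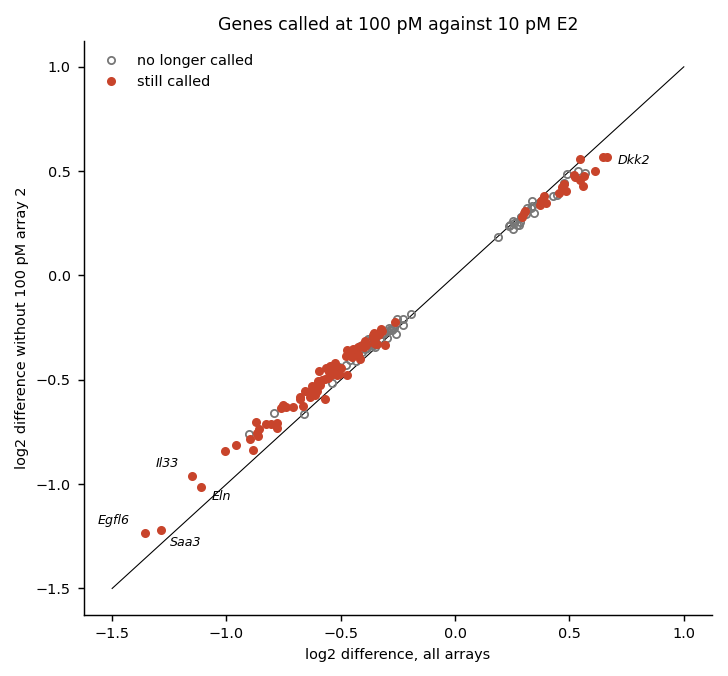
Each point is 1 of the 166 called genes, with its log2 difference from all arrays on the x axis and from the fit without the second 100 pM array on the y axis; the line marks equal values. Most points lie closer to 0 without that array (median ratio 0.884), and 96 genes (filled) were still called.

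Egfl6, a secreted EGF-like matrix protein, fell furthest. Its log2 expression was 7.09, 7.17 and 7.22 in the 10 pM arrays and 6.01, 5.56 and 5.84 in the 100 pM arrays, a difference of -1.36 ± 0.11 (SE, n = 3 against 3, adjusted p = 0.00413) or a 2.56-fold fall. The 3 vehicle arrays, at 7.31, 7.19 and 7.41, reached no lower than the 10 pM arrays, so the fall lay between the 2 doses of E2.

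Genes of the elastic fibre, the stretchable part of the matrix, moved in both directions. Of 19 measured, 4 were called lower and 2 higher, against 0.607% and 0.226% of all genes, with a list median of -0.09. Eln, which encodes elastin itself, stood at 9.22, 9.28 and 9.17 at 10 pM and at 8.27, 7.92 and 8.14 at 100 pM (-1.11 ± 0.09, adjusted p = 0.00413). Its arrays at the higher dose lay below every other array, vehicle included. Mfap4, a microfibril-associated glycoprotein, fell from 9.88, 9.90 and 9.92 to 9.27, 8.89 and 9.29 (-0.75 ± 0.10, adjusted p = 0.0113). Within families the direction split: among fibulins, which bind elastin, Fbln1 fell (-0.57 ± 0.06) and Fbln5 rose (0.29 ± 0.04), and among the latent TGF-β binding proteins Ltbp2 fell (-0.31 ± 0.05) and Ltbp1 rose (0.34 ± 0.06). Both Ltbp calls were lost without the second 100 pM array, and each was kept in 0 of the 9 fits that left out 1 array.

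Of 34 matricellular proteins and proteoglycans measured, 7 were called and all 7 were lower, against 0.607% of all genes called lower. Besides Egfl6 these were Fndc1 (-0.86 ± 0.11), the small leucine-rich proteoglycans Lum (-0.46 ± 0.07) and Dcn (-0.32 ± 0.05), Mgp, an inhibitor of calcification (-0.41 ± 0.07), Postn (-0.36 ± 0.06) and Sparcl1 (-0.36 ± 0.06). Calls of Lum, Mgp and Postn were lost without the second 100 pM array, which left 4. That of Sparcl1 was kept in 2 of the 9 fits that each left out 1 array. Collagen chains were nearly balanced, with a median of -0.01 over 22 genes. Col14a1, a fibril-associated collagen, fell by 0.55 ± 0.08 on the log2 scale, a call kept in 3 of the 9 fits that each left out 1 array. Col8a1, a network-forming collagen, had the tightest replicates of the genes named here, at 9.44 in each 10 pM array and 9.75, 9.74 and 9.73 at 100 pM (0.30 ± 0.03, adjusted p = 0.00571). Its vehicle arrays, at 9.51, 9.52 and 9.53, lay between the doses.

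Matrix enzymes and adhesion receptors gave 2 calls in each list, 1 in each direction, against 0.607% of all genes lower and 0.226% higher. Tll1, a metalloprotease of the BMP1 family that cleaves procollagens, rose from 8.33, 8.42 and 8.45 to 8.84, 9.13 and 8.88 (0.55 ± 0.07, adjusted p = 0.0134), whereas Mmp19 fell by 0.27 ± 0.05. Among integrins and cadherins, Itga1, the collagen-binding α1 chain, fell from 9.07, 9.16 and 9.06 to 8.62, 8.37 and 8.53 (-0.59 ± 0.07, adjusted p = 0.00764). Itga4, the α4 chain that binds fibronectin and Vcam1, rose from 8.34, 8.49 and 8.40 to 8.89, 8.96 and 8.82 (0.48 ± 0.07, adjusted p = 0.0146). The other 26 integrins and cadherins measured were not called. Of the genes called, Mmp19 and Itga4 lost their calls without the second 100 pM array. Mmp19 was called in 0 of the 9 fits that each left out 1 array.

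**Figure D3:**
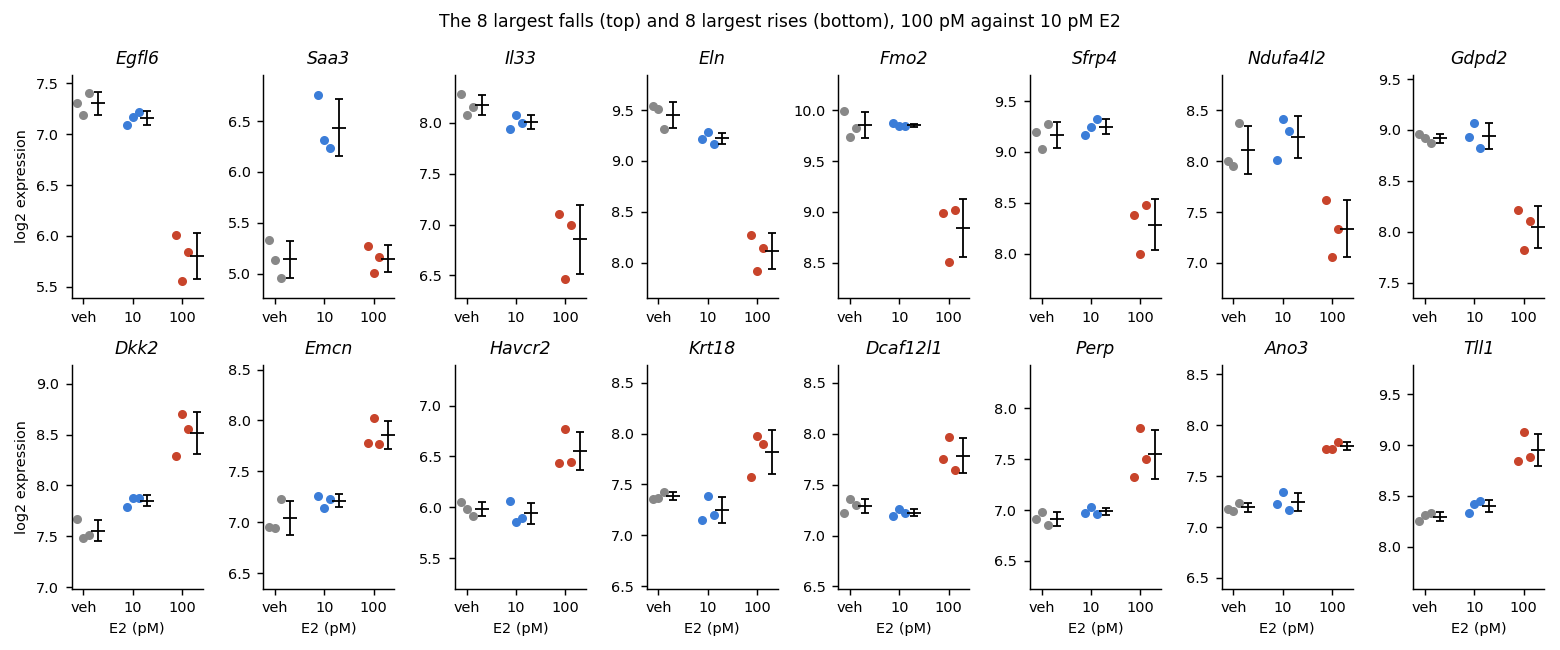
Log2 expression (y axis) in each array (points) of vehicle, 10 pM and 100 pM E2 (x axis), with the mean and SD of 3 arrays beside them. Shown are the 8 largest falls (top row) and 8 largest rises (bottom row) between the doses among called genes. Each y axis spans the same 2.2 log2 units. In all 16 genes the 100 pM arrays lie apart from the 10 pM arrays, and in Saa3 the vehicle arrays lie with the 100 pM arrays.

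The insulin-like growth factor (IGF) axis held 7 called genes of 20 measured, 6 lower and 1 higher, against 0.607% and 0.226% of all genes. IGF binding proteins hold IGF1 and IGF2 in the extracellular fluid and set how much reaches the receptor. Igfbp3 fell from 10.27, 10.27 and 10.31 to 9.74, 9.26 and 9.55 (-0.76 ± 0.10, adjusted p = 0.0124). Igfbp4 fell from 9.25, 9.18 and 9.18 to 8.60, 8.33 and 8.64 (-0.68 ± 0.08, adjusted p = 0.00949). Igfbp2 fell from 10.43, 10.45 and 10.41 to 9.92, 9.84 and 9.99 (-0.51 ± 0.04, adjusted p = 0.00413). In each of these the doses were separated by more than the range within a dose. Igfbp5 (-0.55 ± 0.07) and the ligand Igf1 (-0.33 ± 0.05) were also lower. Igfbp6 had a log2 difference of -0.29 that missed the threshold (adjusted p = 0.0545). Pappa, the protease that cleaves Igfbp4 and so frees IGFs, rose from 9.76, 9.70 and 9.70 to 10.03, 10.13 and 10.12 (0.38 ± 0.04, adjusted p = 0.00791). Stc2, a secreted inhibitor of that protease, fell by 0.43 ± 0.07 on the log2 scale, a call lost without the second 100 pM array. The list median was -0.04, since the other 13 members were spread on both sides of 0.

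Secreted Wnt antagonists were called in opposite directions. Sfrp4 and Sfrp1, secreted Frizzled-related proteins that bind Wnt ligands, fell. Sfrp4 stood at 9.17, 9.25 and 9.32 at 10 pM and 8.38, 8.00 and 8.48 at 100 pM (-0.96 ± 0.12, adjusted p = 0.0097), and Sfrp1 at 9.93, 9.84 and 9.89 against 9.22, 8.68 and 9.15 (-0.87 ± 0.12, adjusted p = 0.0158). Dkk2, which acts on the LRP co-receptors instead, was the largest rise of all genes called. It stood at 7.67, 7.48 and 7.51 in vehicle, at 7.79, 7.88 and 7.88 at 10 pM and at 8.29, 8.70 and 8.55 at 100 pM (0.66 ± 0.10, adjusted p = 0.0171), a 1.58-fold rise with no overlap between any of the 3 groups. The other 15 modulators measured were not called and the list median was 0.01. Over all genes, 0.607% were called lower and 0.226% higher. Of 31 Wnt ligands, receptors and targets, 23 had the lower mean, as did 9857 of all 19938 genes. The 1 called was Prickle1 of the planar polarity pathway (-0.32 ± 0.05, not called without the second 100 pM array). Grem1, a secreted BMP antagonist, was the only call among 34 TGF-β and BMP genes and rose by 0.54 ± 0.08, with an adjusted p of 0.0689 without the second 100 pM array.

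Inflammatory and acute-phase genes were lower as far as they were called: 5 of 30 measured, against 0.607% of all genes called lower. In mean 26 of 30 were lower, and the median was -0.09. Saa3, an acute-phase serum amyloid, stood at 6.76, 6.31 and 6.24 at 10 pM and at 5.27, 5.01 and 5.16 at 100 pM (-1.29 ± 0.14, adjusted p = 0.00764). Its vehicle arrays, at 5.33, 5.13 and 4.96, overlapped with the 100 pM arrays, and it was the only one of the 121 lower genes whose vehicle mean was not above its 100 pM mean. Il33, a nuclear cytokine of the IL-1 family, took the other course. It stood at 8.28, 8.08 and 8.16 in vehicle, 7.94, 8.08 and 8.00 at 10 pM and 7.10, 6.47 and 7.00 at 100 pM (-1.15 ± 0.14, adjusted p = 0.0097). Lcn2, an iron-siderophore binding protein, fell from 6.34, 6.00 and 6.02 to 5.46, 5.24 and 5.32 (-0.78 ± 0.09, adjusted p = 0.00951). Ccl2, a monocyte chemoattractant, stood at 7.15, 7.21 and 7.34 at 10 pM, 6.37, 6.58 and 6.77 at 100 pM, and between these in vehicle at 6.85, 6.89 and 6.82 (-0.66 ± 0.09, adjusted p = 0.0146, and 0.0591 without the second 100 pM array). Nfkbia, the inhibitor of NF-κB and itself a target of it, fell by 0.31 ± 0.05 (adjusted p = 0.0389, and 0.136 without that array). Macrophage markers moved the same way without a call: 13 of 15 had the lower mean at 100 pM, led by Lyz2 at 6.66, 6.97 and 6.09 against 5.77, 5.55 and 6.17 (-0.74 ± 0.23, adjusted p = 0.275) and C1qb (-0.33, adjusted p = 0.242). Their part in the inflammatory falls was not tested.

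Complement gave an opposed pair. Serping1, the C1 inhibitor, which blocks the initiating proteases C1r, C1s and the MASPs, fell from 9.51, 9.48 and 9.43 to 8.68, 8.55 and 8.86 (-0.78 ± 0.07, adjusted p = 0.00413). Masp1, a protease of the lectin pathway, rose from 7.83, 7.89 and 7.90 to 8.29, 8.42 and 8.33 (0.48 ± 0.05, adjusted p = 0.00571). Both kept their calls in all 9 fits that left out an array. The other 17 complement genes measured were not called. Among all genes, 0.607% were called lower and 0.226% higher.

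Genes that respond to low oxygen were the most shifted of the lists by their median. Cells sense oxygen through prolyl hydroxylases that mark hypoxia-inducible factors (HIF) for destruction, and HIF raises glucose uptake, glycolysis and collagen hydroxylases. Of 25 hypoxia-response genes measured, 21 had the lower mean at 100 pM, 17 with no overlap between the doses (6.42% of all genes). Of the 25, 7 were called lower and 1 higher, against 0.607% and 0.226% of all genes. The median log2 difference was -0.31. Among 16 glycolysis enzymes and transporters, 15 had the lower mean, 13 without overlap, 2 were called and the median was -0.20. Without the second 100 pM array the medians were -0.21 and -0.13.

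Egln3, an oxygen-sensing prolyl hydroxylase that is itself induced by HIF, stood at 8.01, 8.00 and 7.92 at 10 pM and 7.16, 6.92 and 7.37 at 100 pM (-0.83 ± 0.10, adjusted p = 0.0097), with vehicle between them at 7.62, 7.55 and 7.70. Ndufa4l2, which lowers respiration in hypoxia, stood at 8.01, 8.41 and 8.30 against 7.62, 7.06 and 7.33 (-0.90 ± 0.17, adjusted p = 0.0499, and 0.149 without the second 100 pM array). Pdk1, which keeps pyruvate out of the mitochondria, stood at 8.79, 8.83 and 8.83 against 8.38, 8.01 and 8.36 (-0.56 ± 0.09, adjusted p = 0.0236). In these 3 genes, and in 20 of the 25 in the list, the second 100 pM array was the lowest of the 6. Higd1a (-0.52 ± 0.09), the glucose transporter Slc2a3 (-0.59 ± 0.10) and the collagen prolyl hydroxylase subunits P4ha2 (-0.47 ± 0.09) and P4ha1 (-0.36 ± 0.06) were the remaining lower calls. The exception was Car12, a membrane carbonic anhydrase, which rose from 7.00, 6.96 and 6.96 to 7.25, 7.53 and 7.47 (0.44, adjusted p = 0.0428, and 0.143 without the second 100 pM array), over vehicle arrays of 6.50, 6.31 and 6.51. Of the 9 fits that each left out 1 array, Egln3 was called in 7 and Pdk1 in 3. Higd1a, Slc2a3, P4ha2, P4ha1 and Car12 were called in 2 and Ndufa4l2 in 1. Of the glycolysis list, Aldoc fell from 7.23, 7.42 and 7.17 to 6.72, 6.47 and 6.71 (-0.64 ± 0.08, adjusted p = 0.0108). Pgk1 fell from 12.68, 12.72 and 12.72 to 12.42, 12.26 and 12.43 (-0.34 ± 0.05, adjusted p = 0.0158), with vehicle at 12.56, 12.56 and 12.52. Other probesets of Pgk1 gave -0.34 and -0.32. Aldoc was called in 8 and Pgk1 in 6 of the 9 fits that each left out 1 array. Vegfa, the best known secreted product of this response, stood at 9.70, 9.71 and 9.64 against 9.48, 9.29 and 9.51 (-0.25 ± 0.06) and did not pass the test (adjusted p = 0.124), and neither did Bnip3 (-0.69 ± 0.14, adjusted p = 0.0792).

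By array, the median hypoxia-response gene lay 0.21, 0.51 and 0.20 log2 units below its 10 pM mean in the 3 arrays at 100 pM, while the vehicle arrays stood at -0.15, -0.15 and -0.06. For glycolysis the medians were -0.16, -0.32 and -0.13 at 100 pM and -0.11, -0.09 and -0.09 in vehicle. The 10 pM arrays were thus the highest of the 9 for both lists. Medians of the difference from vehicle were 0.11 at 10 pM and -0.20 at 100 pM for hypoxia-response genes, and 0.10 and -0.10 for glycolysis. These comparisons share the vehicle arrays and were not tested as lists.

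**Figure D4:**
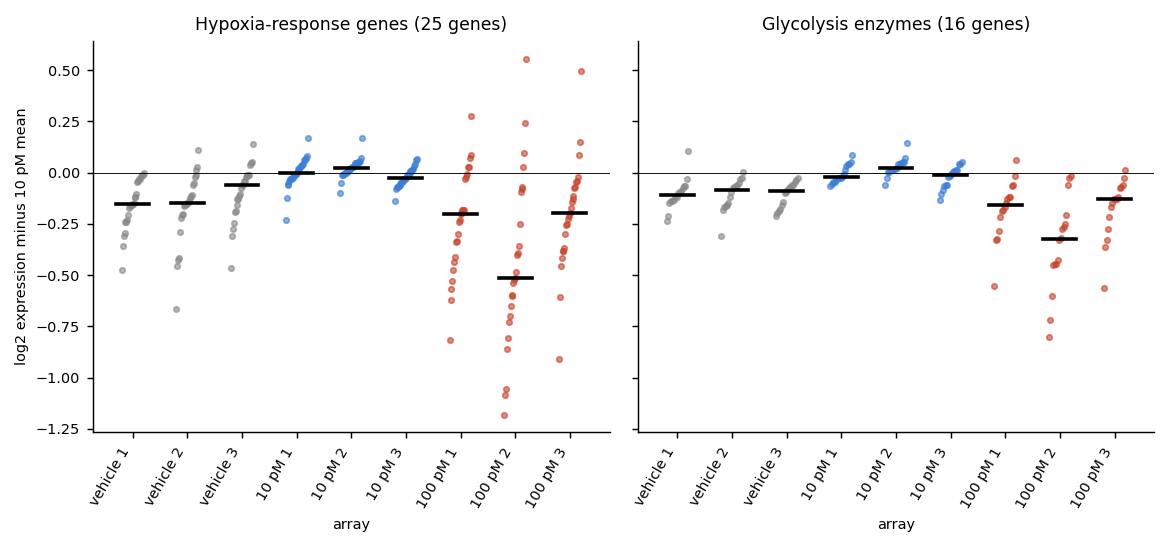
Log2 expression minus the 10 pM mean of the same gene (y axis) in each of the 9 arrays (x axis), for 25 hypoxia-response genes (left) and 16 glycolysis enzymes (right); each point is a gene and each bar the median. Medians are lowest in the second 100 pM array, at -0.51 and -0.32, and all 100 pM medians lie below the 10 pM and vehicle medians.

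Promoter windows, from 250 bases before to 50 after a transcription start, were read from RefSeq (GRCm38.p6) where it had them, for 15614 of all genes, 84 of the 121 lower and 34 of the 45 higher. ACGTG, the core of the HIF-binding element on either strand, was present in 24.4% of all these genes, in 28.6% of the lower and in 20.6% of the higher genes. In the hypoxia list it was in 15 of 20 genes with a window and in the glycolysis list in 11 of 16. Among the called members with a window, Egln3, P4ha1, P4ha2 and Pgk1 held it before the start, Higd1a and Aldoc only after it (44 and 28 bases into the transcript), and Pdk1 and Car12 not at all. The 250 bases before the start are shown for the former 4, in the direction of transcription. The ACGTG core (CACGT where it lies on the other strand) is in capitals, and its part in the falls was not tested.
Egln3, chr12:54203875-54204124, minus strand: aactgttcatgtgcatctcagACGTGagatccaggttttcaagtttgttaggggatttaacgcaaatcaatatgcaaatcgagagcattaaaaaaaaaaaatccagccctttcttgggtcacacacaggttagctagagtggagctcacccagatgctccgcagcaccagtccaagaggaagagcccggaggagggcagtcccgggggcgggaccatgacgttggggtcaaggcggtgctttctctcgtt
P4ha1, chr10:59323046-59323295, plus strand: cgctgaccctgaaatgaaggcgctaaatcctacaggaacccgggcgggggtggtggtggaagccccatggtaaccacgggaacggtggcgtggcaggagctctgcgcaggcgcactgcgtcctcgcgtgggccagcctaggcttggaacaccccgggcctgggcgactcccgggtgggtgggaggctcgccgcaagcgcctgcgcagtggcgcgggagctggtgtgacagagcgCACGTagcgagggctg
P4ha2, chr11:54100674-54100923, plus strand: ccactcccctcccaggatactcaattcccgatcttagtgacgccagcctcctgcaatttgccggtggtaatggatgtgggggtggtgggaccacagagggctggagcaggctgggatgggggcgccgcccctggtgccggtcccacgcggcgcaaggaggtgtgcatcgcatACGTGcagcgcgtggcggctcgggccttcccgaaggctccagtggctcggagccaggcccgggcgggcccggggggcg
Pgk1, chrX:106186850-106187099, plus strand: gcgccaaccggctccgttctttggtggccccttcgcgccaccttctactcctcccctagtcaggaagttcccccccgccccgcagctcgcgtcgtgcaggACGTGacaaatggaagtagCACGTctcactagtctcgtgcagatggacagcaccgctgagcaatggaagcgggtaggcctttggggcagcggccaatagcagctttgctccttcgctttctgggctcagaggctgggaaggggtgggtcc
The core began 229 bases before the start in Egln3, 16 in P4ha1 and 78 in P4ha2. Pgk1 held a pair, at 150 and 131 bases before the start. A match is a string of letters and does not show that a factor was bound.

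For the inflammatory genes the search was for the NF-κB motif. It was found in 1713 of all 15614 genes with a window, in 16 of 84 lower genes, in 2 of 34 higher genes and in 7 of 20 in the inflammatory list. Of the called members, Nfkbia held it 29 bases before the start, and Il33, Lcn2 and Saa3 had no match. The 250 bases before the Nfkbia start are shown with the motif in capitals.
Nfkbia, chr12:55492648-55492897, minus strand: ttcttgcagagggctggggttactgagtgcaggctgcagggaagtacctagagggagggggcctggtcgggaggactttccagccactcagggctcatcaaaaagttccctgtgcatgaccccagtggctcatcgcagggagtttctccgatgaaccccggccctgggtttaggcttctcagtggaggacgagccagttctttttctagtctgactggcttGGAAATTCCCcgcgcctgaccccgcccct

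For E2 itself, the full palindromic estrogen response element (GGTCA and its reverse complement, 3 bases apart) was in the windows of 0 higher and 0 lower genes and of 6 among 15614 genes. Its AGGTCA hexamer on either strand was in 7 of 34 higher genes (20.6%), 13 of 84 lower genes (15.5%) and 16.3% of all. Emcn, Havcr2 and Krt18, which with Dkk2 were the 4 largest called rises, held it. Called falls held the hexamer as well, Fmo2, Fndc1 and Sult1e1 among them. Dkk2 and, among other large called rises, Dcaf12l1 and Ano3 had windows without it. For Emcn, Havcr2 and Krt18 the 250 bases before the start are shown with the hexamer, or its reverse complement, in capitals.
Emcn, chr3:137340828-137341077, plus strand: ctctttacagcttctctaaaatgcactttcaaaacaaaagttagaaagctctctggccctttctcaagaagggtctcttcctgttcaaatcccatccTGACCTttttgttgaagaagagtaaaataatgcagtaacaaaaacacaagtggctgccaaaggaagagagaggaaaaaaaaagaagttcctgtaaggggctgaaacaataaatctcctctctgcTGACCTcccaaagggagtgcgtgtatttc
Havcr2, chr11:46454681-46454930, plus strand: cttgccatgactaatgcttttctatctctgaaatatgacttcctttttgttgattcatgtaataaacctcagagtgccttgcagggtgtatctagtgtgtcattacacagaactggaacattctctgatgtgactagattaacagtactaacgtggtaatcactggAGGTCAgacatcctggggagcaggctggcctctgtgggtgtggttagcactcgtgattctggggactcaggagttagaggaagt
Krt18, chr15:102027966-102028215, plus strand: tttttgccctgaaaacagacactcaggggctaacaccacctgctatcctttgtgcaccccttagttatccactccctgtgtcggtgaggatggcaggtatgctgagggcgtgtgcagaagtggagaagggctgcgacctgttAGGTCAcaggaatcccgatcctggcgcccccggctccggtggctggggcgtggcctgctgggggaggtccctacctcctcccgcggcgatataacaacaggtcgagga
Other searched motifs were the AP-1 site TGANTCA, in 4 of 34 higher and 4 of 84 lower genes against 8.08% of all, the GC box GGGCGG, in 58.8% of higher, 56.0% of lower and 52.9% of all genes, the TATA box, in 23.5%, 16.7% and 13.6%, and the CArG box, in 2 higher and 0 lower genes against 1.63% of all.

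None of the 11 steroid receptor genes was called between the doses. Esr1 stood at 7.54, 7.58 and 7.59 at 10 pM and 7.58, 7.69 and 7.76 at 100 pM (0.11 ± 0.05, adjusted p = 0.493). Pgr stood at 6.57, 6.84 and 6.77 in vehicle, 7.04, 7.27 and 7.26 at 10 pM and 7.55, 7.84 and 7.90 at 100 pM, so no array of one group overlapped with another, yet its log2 difference between the doses of 0.58 ± 0.11 just missed the threshold (adjusted p = 0.0528, and 0.00973 to 0.241 over the alternatives). Nr2f2, an orphan receptor, had a log2 difference of 0.10 ± 0.04 (adjusted p = 0.376). Of 17 estrogen-responsive genes, 1 was called higher and 3 lower, against 0.226% and 0.607% of all genes, with a median of 0.02. The higher one was Ccnd1, cyclin D1, at 9.18, 9.25 and 9.20 against 9.57, 9.64 and 9.53 (0.37 ± 0.05, adjusted p = 0.0097). The lower ones were the IGF axis genes Igf1, Igfbp4 and Stc2. Greb1 had a log2 difference of 0.33 ± 0.12 (adjusted p = 0.376). Among 19 steroid-metabolizing enzymes, 0 were called higher and 1 lower, against 0.226% and 0.607% of all genes. The lower one was Sult1e1, the estrogen sulfotransferase that inactivates E2, from 7.57, 7.44 and 7.69 to 6.99, 6.82 and 6.90 (-0.67 ± 0.08, adjusted p = 0.0108). Its vehicle arrays of 7.47, 7.39 and 7.65 overlapped with those at 10 pM. In mean 9 of the 19 were higher and 10 lower at 100 pM, with a median of -0.002. The largest difference in the list was a rise of 0.885, that of Akr1c14, which was not called.

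Retinoid handling genes fell as far as they were called, 5 of 23 measured, against 0.607% of all genes called lower. All 5 calls were kept without the second 100 pM array. Retinol enters cells through Stra6, is stored as esters by Lrat, and is oxidized toward retinoic acid by Adh1 and Rdh10, while Dhrs3 runs the reverse step. Lrat had the smallest p of all genes, at 6.82, 6.85 and 6.79 against 5.98, 5.85 and 5.98 (-0.88 ± 0.07, adjusted p = 0.00413), a 1.84-fold fall. Adh1 stood at 8.68, 8.80 and 8.73 against 7.97, 7.65 and 8.00 (-0.87 ± 0.09, adjusted p = 0.00732). Stra6 stood at 8.06, 8.12 and 8.01 against 7.52, 7.21 and 7.42 (-0.68 ± 0.07, adjusted p = 0.00732). For Lrat, Adh1 and Stra6 the 10 pM and vehicle arrays overlapped and only the 100 pM arrays stood apart. Rdh10 (-0.35 ± 0.05) and Dhrs3 (-0.26 ± 0.04) fell less. The list median was -0.05, and 17 of 23 had the lower mean. Aldh1a1, a retinaldehyde dehydrogenase, had a log2 difference of -0.26 with an adjusted p of 0.0545. The largest rise in the list, of 0.446, was not called either. The doses did not overlap in 8 members that were lower and 2 that were higher, against 6.42% and 5.89% of all genes.

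Of 17 enzymes of foreign-compound metabolism measured, 3 were called lower and 2 higher, against 0.607% and 0.226% of all genes. The flavin monooxygenases Fmo2 and Fmo1 fell. Fmo2 stood at 9.87, 9.84 and 9.84 against 8.99, 8.51 and 9.02 (-1.01 ± 0.12, adjusted p = 0.0101), and Fmo1 differed by -0.60 ± 0.07. The microsomal glutathione transferase Mgst1 also fell (-0.35 ± 0.04). The quinone reductase Nqo1 (0.43 ± 0.06) and the epoxide hydrolase Ephx1 (0.40 ± 0.05) rose, the former not called without the second 100 pM array. The other 12 members measured were not called.

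Endothelial genes moved both ways, with 1 of 13 markers called in each direction, against 0.607% of all genes lower and 0.226% higher. Kdr, the main VEGF receptor, stood at 7.84, 7.75 and 7.67 against 6.89, 6.71 and 7.08 (-0.86 ± 0.10, adjusted p = 0.00951). Emcn, endomucin, a sialomucin of venous and capillary endothelium, stood at 7.26, 7.14 and 7.23 against 7.78, 8.02 and 7.77 (0.65 ± 0.09, adjusted p = 0.0155). Both genes were on the endothelial marker list and they moved in opposite directions, and the other 11 endothelial markers were not called. Angpt2, a ligand of the Tie2 receptor, rose by dose, at 6.15, 6.22 and 6.05 in vehicle, 6.45, 6.51 and 6.51 at 10 pM and 6.79, 6.79 and 6.84 at 100 pM (0.31 ± 0.05 between the doses, adjusted p = 0.0242, and 0.0763 without the second 100 pM array).

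Epithelial keratins and junction genes included 2 of the 8 largest called rises. Krt18, a keratin of simple epithelia, stood at 7.15, 7.39 and 7.20 against 7.57, 7.98 and 7.90 (0.57 ± 0.10, adjusted p = 0.0428, and 0.142 without the second 100 pM array), with vehicle at 7.36, 7.37 and 7.43. Perp, a desmosome component, stood at 6.97, 7.03 and 6.96 against 7.33, 7.81 and 7.50 (0.56 ± 0.10, adjusted p = 0.0499). Its call was kept in 2 of the 9 fits that each left out 1 array. Cldn11, a tight junction claudin, fell from 7.90, 7.78 and 7.81 to 7.25, 7.32 and 7.22 (-0.57 ± 0.05, adjusted p = 0.00413). Of 29 genes of this list, 2 were called higher and 1 lower, against 0.226% and 0.607% of all genes. In mean 19 were higher at 100 pM, against 50.4% of all genes, and the median was 0.03. Krt18 was the one call among the 14 epithelial markers, which had a median log2 difference of 0.02. Their summed signal was higher in each 100 pM array than in any other, but without Krt18 it was 669 to 695 at 10 pM and 655 to 745 at 100 pM and the doses overlapped.

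Channels, transporters and G protein regulators included 4 of the 20 largest called rises. Ano3, an anoctamin, stood at 7.23, 7.34 and 7.17 against 7.77, 7.77 and 7.84 (0.55 ± 0.05, adjusted p = 0.00464). Rgs5, a regulator of G protein signaling that is abundant in pericytes, stood at 7.65, 7.71 and 7.76 against 8.20, 8.30 and 8.18 (0.52 ± 0.05, adjusted p = 0.00571). Slc5a7, the choline transporter, stood at 6.17, 6.17 and 6.04 against 6.61, 6.76 and 6.60 (0.52 ± 0.07, adjusted p = 0.0141). With Car12 they made 4 calls higher among 23 channels, transporters and G protein regulators, against 0.226% of all genes. In mean 12 of the 23 were higher and 11 lower. The list median was 0.03, and -0.004 without the second 100 pM array. The potassium channel Kcnma1 was the one call lower, against 0.607% of all genes (-0.39 ± 0.06, adjusted p = 0.0972 without that array). Another probeset of Kcnma1 had a difference of 0.22, so that gene's direction depended on the probeset. Havcr2, an immune checkpoint receptor, stood at 6.06, 5.86 and 5.90 against 6.44, 6.77 and 6.45 (0.61 ± 0.09, adjusted p = 0.0207). Dcaf12l1 stood at 7.19, 7.26 and 7.22 against 7.75, 7.97 and 7.64 (0.57 ± 0.08, adjusted p = 0.0133). Other rises of more than 0.4 were Cyp11b1 (0.49 ± 0.07, adjusted p = 0.069 without the second 100 pM array), the glutathione transferase Gsto1 (0.48 ± 0.06), the co-stimulatory ligand Cd80 (0.47 ± 0.06) and the glycosyltransferase Galnt18 (0.45 ± 0.07).

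Slc27a6, a fatty acid transporter, was among the 20 largest called falls, from 7.33, 7.44 and 7.18 to 6.75, 6.26 and 6.57 (-0.79 ± 0.13, adjusted p = 0.0294, and 0.0644 without the second 100 pM array). Its vehicle arrays, at 7.53, 7.20 and 7.38, overlapped with those at 10 pM.

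Genes of mesenchymal identity and patterning gave few calls, set beside 0.607% of all genes called lower and 0.226% higher. Pdgfra, the PDGF receptor α chain of mesenchymal cells, fell from 9.48, 9.43 and 9.41 to 8.94, 8.85 and 9.00 (-0.51 ± 0.04, adjusted p = 0.00413). It was the only call among 35 growth factors and receptors, and with Dcn the only one among 12 mesenchymal markers. Tcf21 (-0.36 ± 0.06) was the one call among 26 mesenchymal transcription factors and Pdlim3 (-0.51 ± 0.06) among 20 smooth muscle genes. The guidance molecules of the semaphorin 3 family moved apart, Sema3d from 9.45, 9.55 and 9.49 to 8.90, 8.74 and 8.96 (-0.63 ± 0.06, adjusted p = 0.00568) and Sema3a upward by 0.24 ± 0.04, a call lost without the second 100 pM array. Cdkn1c, an imprinted inhibitor of the cell cycle, fell by 0.35 ± 0.05 and was the one call among 27 cell cycle genes, whose median was -0.02. It was likewise lost without that array. Vldlr was the one call among 16 genes of the integrated stress response (-0.37 ± 0.06), and it too was lost without that array.

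Sterol biosynthesis moved slightly and without a call. Of 20 genes measured, 16 had the higher mean at 100 pM and 10 had no overlap between the doses (5.89% of all genes), with a median of 0.10. The largest were Msmo1, at 10.67, 10.66 and 10.73 against 10.82, 10.95 and 10.89 (0.20 ± 0.05, adjusted p = 0.142), and Insig1 (0.20 ± 0.05, adjusted p = 0.175). Medians by array relative to the 10 pM means were 0.06, 0.07 and 0.10 at 100 pM and -0.08, -0.01 and -0.02 in vehicle. Immediate-early transcription factors gave no call among 22, with a median of 0.00, and the smallest p were those of Nr4a2 (0.26 ± 0.07, adjusted p = 0.221) and Fosb (-0.13 ± 0.04, adjusted p = 0.229).

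**Figure D5:**
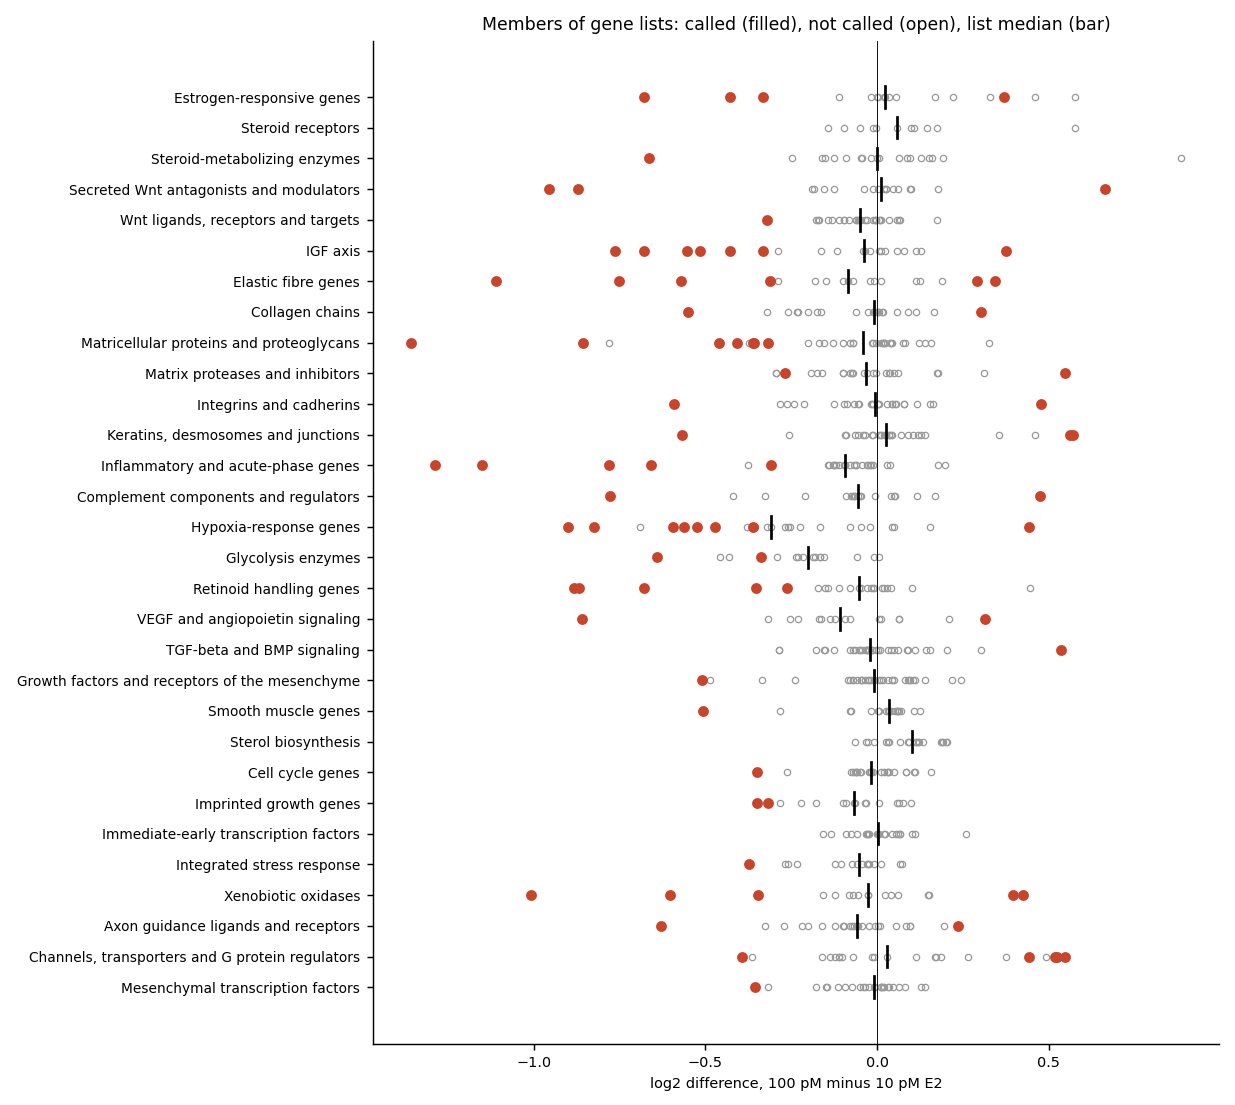
Log2 difference of 100 pM minus 10 pM E2 (x axis) for the measured members of 30 gene lists (rows), with called members filled, others open and the list median as a bar. The hypoxia-response and glycolysis medians lie furthest from 0, at -0.31 and -0.20, and the sterol biosynthesis median at 0.10 holds no called gene.

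Set beside vehicle, most of the 166 genes lay closer to vehicle at 10 pM than at 100 pM. The vehicle mean was nearer to the 10 pM than to the 100 pM mean in 45 of 45 higher genes and in 113 of 121 lower genes (93.4%), against 58.8% of genes not called. It was within 0.1 log2 units of the 10 pM mean in 30 higher and 83 lower genes, a smaller share (68.1%) than among genes not called (86.3%). Vehicle and 10 pM arrays overlapped in 33 higher and 88 lower genes, 72.9% of the 166 against 94.2% of genes not called. All 3 arrays at 100 pM lay under all vehicle arrays in 115 of the 121 and over them in 45 of the 45, against 5.36% and 6.43% of genes not called. Between 10 pM and vehicle, limma called 0 of 19938 genes (705 at an unadjusted p below 0.05, 27 of them among the 166, smallest adjusted p 0.16), and 0 with the variance not moderated. The 10 pM mean was the highest of the 3 groups in 66 lower genes, Saa3, Egln3 and Ccl2 among them, and the lowest in 16 higher genes, such as Col8a1. By their means, the other 55 lower and 29 higher genes ran in one direction from vehicle to 100 pM, as for Egfl6, Il33, Dkk2 and Angpt2. In Egfl6, however, vehicle and 10 pM arrays overlapped, and in Il33 they met at 8.08. No list or gene was selected by this place, and the comparisons share arrays. The 166 were, however, called on these same 10 pM and 100 pM values, and a call favours genes extreme at either dose. Their shares beside genes not called are thus a description only.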

How the data were processed

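RNA of each sample was read on 1 Affymetrix Mouse Gene 1.0 ST array. The deposited log2 values per probeset were made by the authors with GCOS and Gene Expression Console; the normalization method and versions are not given in the sources used here, the log2 scale was read from the values, and scanner files were not used here. Array medians lay between 6.17 and 6.20, arrays of a dose correlated at r of 0.997 to 0.998 across genes, and no arrays were identical. Precision is limited by having 3 arrays per dose.

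Of 35556 probesets, 21789 had 1 gene symbol in the platform annotation, 1621 had several and 12146 were unnamed here; 21698 matched current genes by Entrez identifier. For 999 genes with over 1 probeset, the one with the highest mean over 9 arrays was kept, which left 19938 genes. With limma 3.58.1 (R 4.3.3), the 9 arrays were modelled by a mean for each group (lmFit, eBayes), and 100 pM minus 10 pM was tested, two-sided, with Benjamini-Hochberg adjustment over all genes. Errors are that fit's SE. The script was tested on simulated data.

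Named are the 20 largest calls in each direction, every called list member, and the 2 members of smallest p for a list without calls. Esr1, Pgr and Vegfa are named too, as are the 26 genes called with any array left out. Igfbp6, Akr1c14, Aldh1a1, Greb1, Bnip3 and Lyz2 were named after their values were seen. The 30 lists (682 of 721 entries measured), 7 marker lists, members and tests were chosen with earlier results of these data known, so no list was tested. Alternatives were 2 other scalings, dim genes left out, probesets averaged or all tested, other variance settings, the 6 arrays alone, a replicate block, other thresholds and each array left out. Motifs were searched on both strands of RefSeq promoter windows (250 bases before to 50 after a start), and a gene with several windows was counted if 1 held the motif.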

Additional observations from a re-analysis of the deposited data

How the results depend on the processing

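Every one of the 166 genes kept its direction under each alternative fitted per gene. As the doses did not overlap in any of them, leaving out arrays, array weights or other variance settings could not have turned a sign. Against 166 calls (45 higher, 121 lower), leaving out the dimmest 30% of genes gave 291 (80 and 211), trend and robust eBayes 284 (90 and 194), all probesets 30 (7 and 23), an adjusted p below 0.10 302 (86 and 216) and an unadjusted p below 0.01 722 (280 and 442). The 6 arrays alone gave 1 (0 and 1, Lrat; 1767 genes at an unadjusted p below 0.05) and unmoderated variances 1 (1 and 0, Col8a1; 1803 genes). Leaving out each array in turn gave 30 to 178 calls, 6 to 63 higher and 24 to 137 lower; the lowest came without the first 10 pM array. Median centring (170), quantile normalization (197), averaged probesets (178) and array weights (196) stayed within 1.5 times, and no scaling moved the median of all genes by more than 0.0048. With the replicate number as a block 133 genes were called (37 and 96), 117 of them among the 166. Same-numbered arrays of the doses deviated with r of 0.0852, -0.0377 and -0.112. Against vehicle r was 0.0152, -0.0874 and -0.00297 at 10 pM and -0.028, 0.0387 and 0.2 at 100 pM. With 3 values per comparison, these cannot settle whether the samples were paired by number. With 3 arrays per dose, a change of the smallest called size, 0.19, is detectable only where arrays agree closely.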

Other observations

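The following genes were chosen after their values were seen. Beside the counts below, 0.607% of all genes were called lower and 0.226% higher. Of the 166 called genes, 90 were in none of the lists. The metallothioneins, small zinc- and copper-binding proteins, gave 2 calls of 4 genes measured, both lower at 100 pM, Mt1 from 10.58, 10.58 and 10.53 to 10.35, 10.11 and 10.26 (-0.32 ± 0.06, limma adjusted p = 0.0389) and Mt2 by a larger step (-0.50 ± 0.06, adjusted p = 0.0119). Boc and Cdon, cell surface co-receptors for hedgehog ligands, were called lower, but neither call was kept without the second 100 pM array (adjusted p = 0.0644 and 0.0594). Boc went from 8.68, 8.63 and 8.57 to 8.30, 8.13 and 8.34 (-0.37 ± 0.06) and Cdon from 5.88, 5.87 and 5.91 to 5.68, 5.55 and 5.67 (-0.25 ± 0.04). Of 15 amino acid transporters of the Slc7 family measured, 8 had the lower mean and 3 were called, Slc7a2 (-0.35 ± 0.05), Slc7a3 (-0.28 ± 0.05) and Slc7a7 (-0.39 ± 0.07). The calls of Slc7a3 and Slc7a7 were lost without the second 100 pM array (adjusted p = 0.104 and 0.143). Pygl, a glycogen phosphorylase, and Pgm1, which interconverts glucose phosphates, were lower as well (-0.35 ± 0.05 and -0.39 ± 0.07), with an adjusted p of 0.0658 for Pygl without that array.

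Among 5 laminin α chains and 6 glypicans measured, 2 of each were called, 1 in each direction, and none of these 4 calls was kept without the second 100 pM array (adjusted p of 0.0589 to 0.104). Lama4 was lower, at 9.34, 9.35 and 9.20 against 8.95, 8.72 and 8.98 (-0.42 ± 0.07), and Lama2 higher, at 8.80, 8.89 and 8.71 against 9.11, 9.15 and 9.08 (0.31 ± 0.05). Gpc3, a heparan sulfate proteoglycan of the cell surface, was lower (-0.55 ± 0.10) and Gpc4 higher (0.28 ± 0.05). A2m, a broad protease inhibitor, stood at 8.21, 8.23 and 8.43 against 7.63, 7.43 and 7.68 (-0.71 ± 0.08, adjusted p = 0.00764), and Txnip, a glucose-responsive arrestin-like protein, at 10.72, 10.75 and 10.67 against 10.37, 10.20 and 10.37 (-0.40 ± 0.05).

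Some large differences were not called. Akr1c14, a 3α-hydroxysteroid dehydrogenase, had the largest rise of all in log2 terms, from 4.28, 4.52 and 4.43 to 4.89, 5.24 and 5.75 (0.89 ± 0.20), with no overlap between the doses and an adjusted p of 0.0978. Ccn3 (-0.78 ± 0.14) and Capn6 (-0.72 ± 0.13) each had an adjusted p of 0.0509.

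Among 18 further probesets of called genes, 17 had the same sign as the one used, the exception being that of Kcnma1. Among 13767 probesets with several or no gene symbols, 3 were called in a fit of all probesets. Probeset 10569335 stood at 10.47, 10.38 and 10.31 against 9.52, 9.40 and 9.68 (-0.85), probeset 10569341 at 9.13, 9.07 and 9.10 against 8.41, 8.36 and 8.56 (-0.65), and probeset 10342055 at 2.39, 2.35 and 2.46 against 3.06, 3.22 and 3.17 (0.75), near the bottom of the scale.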
